A study of Homo sapiens with 8 samples.

Results

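KLHL29 and 8 genes of its neighbourhood on the short arm of chromosome 2 were examined in HEK293 cells, an established line from human fetal kidney transformed with adenovirus DNA. The members are KLHL29, ATAD2B, UBXN2A, FKBP1B, ITSN2, NCOA1, PUM2, SDC1 and APOB, and every array feature annotated to exactly 1 of them was kept, whether or not it had a value. They were 26 features of the 45015 in the table. Of these, 13 had values in all samples and 13 had none: 9 of the 11 APOB features, 2 of the 3 SDC1 features, 1 of the 2 KLHL29 features and the single ATAD2B feature. Of all features annotated to 1 gene, 33.3% had no value. Per the design text, probes with a mixed reading among the samples of 1 construct were dropped, so an empty entry is not a zero.

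One population of cells overexpressed an intronic KLHL29 transcript in sense orientation (4 samples), and it was compared with cells that overexpressed it in antisense orientation (4 samples). Both were made with the linearised vector pBudCE4.1 and selected for one month in zeocin at 50 µg/ml, and each construct came from 1 transfection kept as a mixed population. The samples of a construct were thawed and grown separately from frozen cells of that transfection, so their spread is that of culture, labelling and hybridisation, and the construct cannot be told apart from the pool that carries it. The transcript was supplied from the introduced vector and not at its own locus. Cells without either insert were not analysed here, so each difference is sense minus antisense on the log2 scale, and samples are numbered by their labelled replicate. Odd-numbered replicates were labelled with Cy3 and even-numbered ones with Cy5, in both constructs.

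KLHL proteins join a BTB domain, which binds cullin 3, to a Kelch domain that holds a substrate, and serve as adaptors of ubiquitin ligases. Long transcripts from introns are known to act in cis, on the host gene or the genes beside it, or in trans, through other parts of the cell. The comparison asks whether mRNAs of the host gene and of genes near it differed between the orientations. In gene order along chromosome 2, SDC1, PUM2 and APOB lie before KLHL29, and ATAD2B, UBXN2A, FKBP1B, ITSN2 and NCOA1 follow it. KLHL29 and ATAD2B are annotated on opposite strands.

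The starts of the host gene and of the members next to it are shown as background. The arrays read mRNA, and no reading was taken at these starts. With the transcript supplied from the vector, an effect in cis from its own locus was not tested. RefSeq promoter entries were found for 8 of the 9 members, all but APOB. The 250 bases before the annotated start are given on the strand of the gene (GRCh38.p14), at chr2:23384929-23385178 on the plus strand for KLHL29, chr2:23927124-23927373 on the minus strand for ATAD2B and chr2:23940213-23940462 on the plus strand for UBXN2A. Capitals mark matches to promoter motifs on either strand. The GC box was searched as GGGCGG. The CCAAT box was searched by the 5 letters of its name, and the TATA box by TATAAA.
KLHL29: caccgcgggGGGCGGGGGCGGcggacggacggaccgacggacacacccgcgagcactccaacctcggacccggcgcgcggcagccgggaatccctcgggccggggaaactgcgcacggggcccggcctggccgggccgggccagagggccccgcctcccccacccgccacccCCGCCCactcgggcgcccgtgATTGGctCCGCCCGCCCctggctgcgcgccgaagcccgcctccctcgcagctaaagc
ATAD2B: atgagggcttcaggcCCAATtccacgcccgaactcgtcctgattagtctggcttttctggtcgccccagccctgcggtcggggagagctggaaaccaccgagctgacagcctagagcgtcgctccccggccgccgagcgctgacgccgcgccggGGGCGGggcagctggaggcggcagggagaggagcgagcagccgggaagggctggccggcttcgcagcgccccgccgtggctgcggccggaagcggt
UBXN2A: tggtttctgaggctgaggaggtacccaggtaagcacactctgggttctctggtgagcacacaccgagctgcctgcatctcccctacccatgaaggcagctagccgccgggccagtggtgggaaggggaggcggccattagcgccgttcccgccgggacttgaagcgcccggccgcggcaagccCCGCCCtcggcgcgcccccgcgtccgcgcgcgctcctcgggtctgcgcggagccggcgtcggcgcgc
The KLHL29 window held 37 CpG dinucleotides at a GC content of 80.4%, against 29 and 72.0% for ATAD2B and 30 and 72.0% for UBXN2A. Over 35116 windows of the same length before annotated starts the median was 11 CpG dinucleotides, and 96.7% had no more than KLHL29. GC boxes, overlapping matches included, occurred 5 times in KLHL29 and once each in the other windows, and 42.6% of all windows held at least 1. A CCAAT box was found once each in KLHL29 and ATAD2B and not in UBXN2A (32.0% of all windows), and a TATA box in none of the windows shown (10.7% of all windows). Of the genes of these windows, UBXN2A was detected in all samples. KLHL29 feature 44585 was under the limits in all samples, and the other KLHL29 feature and that of ATAD2B were empty.

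Most of the array behaved alike in the 8 samples. Detection limits inferred from the deposited filter ran from 24.9 to 47.9 intensity units in sense samples and from 47.0 to 72.3 in antisense samples, where a unit is 1000000 on the deposited scale. Of the 25094 features with values, 21451 lay above the limits in all samples of both constructs. Of 7 genes that HEK293 cells are known to express, 6 were detected, among them NEFL, NEFM and VIM, and PAX2 was not. Of 6 markers of other cell types, 3 had values (PTPRC, PECAM1 and GFAP), and 1 of these (GFAP, by 1 of 2 features) was detected.

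KLHL29 itself was read under the limits in every sample. Feature 44585 gave 10.2, 15.7, 9.13 and 13.6 units in sense samples 1 to 4, against 13.1, 15.1, 13.1 and 17.1 in antisense samples 1 to 4. The readings overlapped, and in both constructs the Cy5 samples were the higher ones. They lay at 0.18 to 0.63 times the limit of their sample, so they hold a bound and no level. The difference of -0.29 (SE 0.16, limma adjusted p = 0.40) was that of the features detected in neither construct, whose median was also -0.29, and it was -0.04 after quantile normalization. The other KLHL29 feature, 11122, was empty. Feature 44585 therefore gave no level of the host mRNA in either construct, and detection by feature 11122 is unknown. Neither probe's position relative to the insert is given in the sources used here.

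The members on either side of KLHL29 could not be read either. ATAD2B, a bromodomain ATPase that binds acetylated histones, has the single empty feature 16623. APOB, the structural protein of low-density lipoproteins made in liver and intestine, had values for 2 of its 11 features, both under the limits. Feature 41232 gave 10.5, 16.9, 8.38 and 12.0 units in sense samples, against 13.0, 15.7, 12.0 and 16.8 in antisense samples. The constructs overlapped there, with a difference of -0.30 like that of KLHL29.

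APOB feature 21264 also had readings with only bounds. It gave 8.58, 13.7, 7.51 and 10.9 units in sense samples 1 to 4, against 22.0, 14.5, 51.6 and 45.1 in antisense samples 1 to 4. Every sense sample was below every antisense sample, but antisense 2 exceeded sense 2 by little, and antisense 3 and 4 stood well above the rest. All 8 readings were under the limits, antisense 3 and 4 just so, at up to 0.96 times the limit. The fitted difference between these readings was -1.57 (SE 0.39, adjusted p = 0.23 in limma), which is no size of a difference because both constructs have only bounds. With values under a limit set to that limit it was -0.79, the difference of the limits themselves, as it was for APOB feature 41232 and KLHL29. On the readings as deposited, feature 21264 passed on the 6 samples of the stated design (adjusted p = 0.026 in limma) and was called by SAM there. Those 6 leave out sense 4 and antisense 2, picked here for their variation in these same values. That choice shrinks the spread that both tests use. Features 21264 and 41232 are annotated to the same APOB transcript, and the readings of feature 41232 differed by -0.30.

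**Figure D1:**
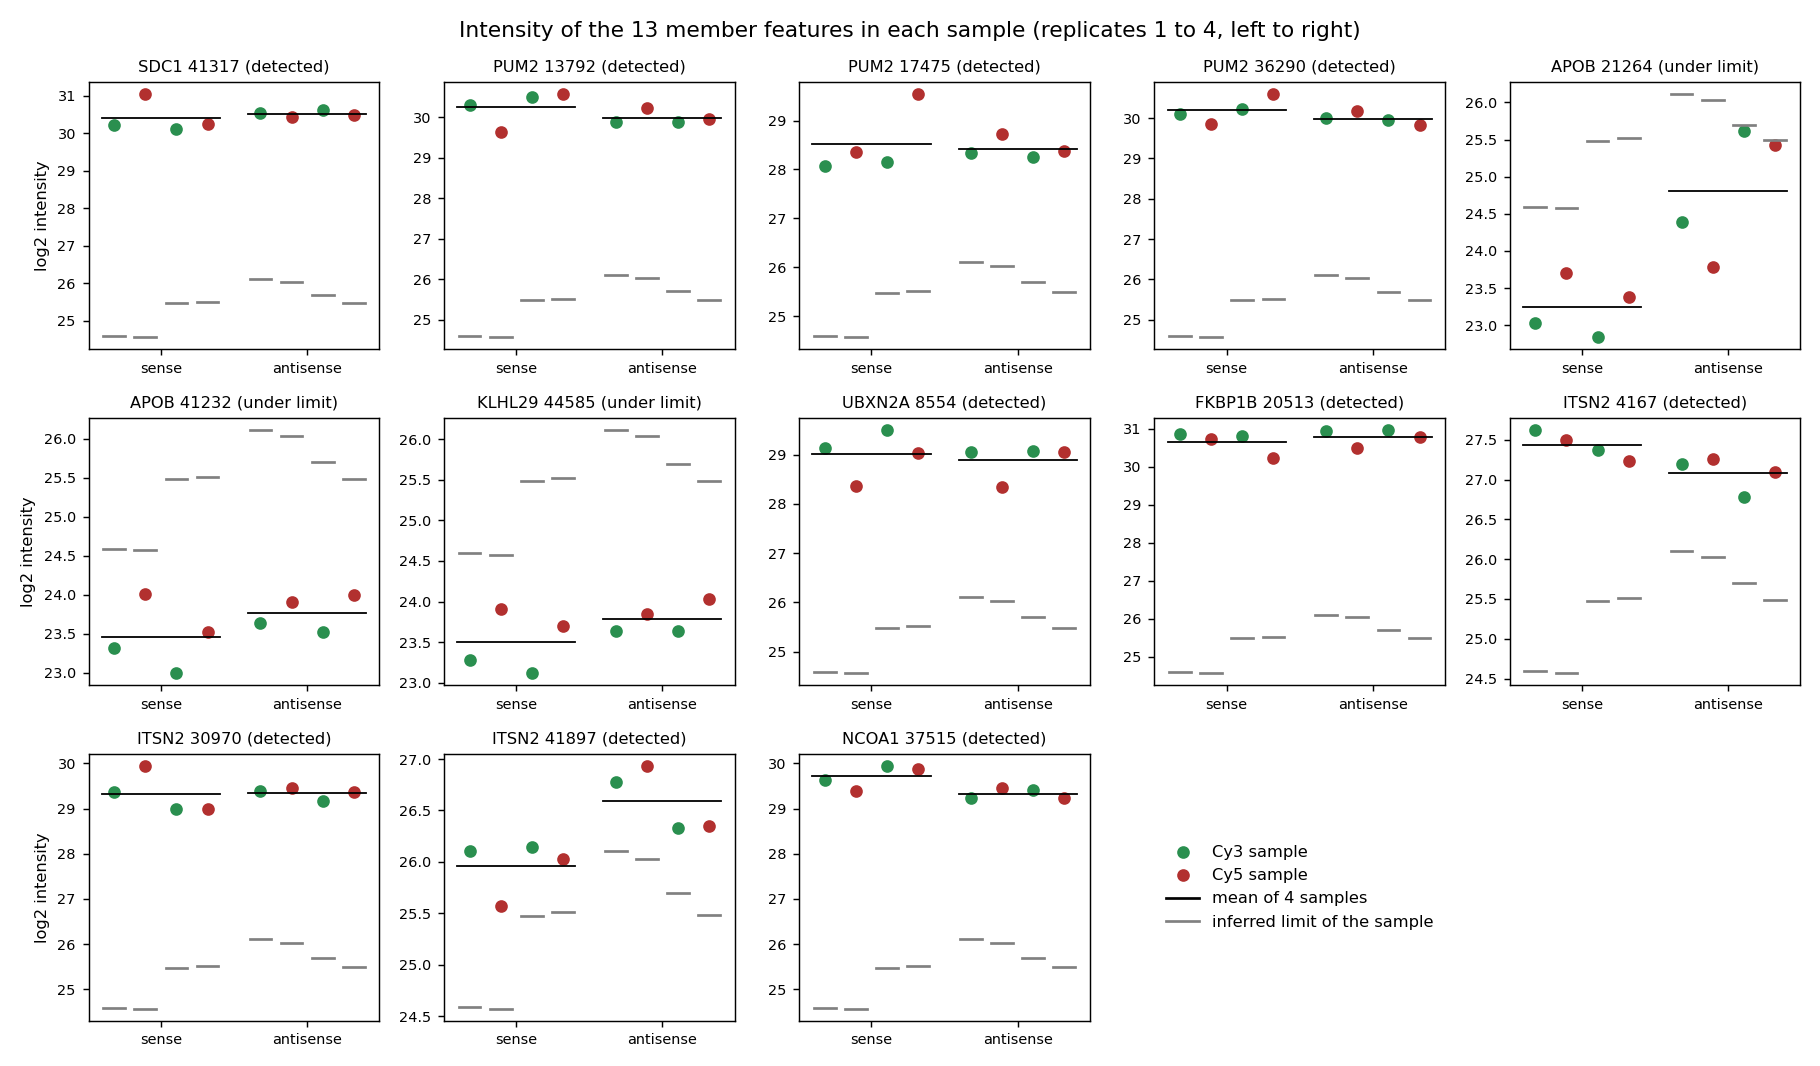
Log2 intensity (vertical axis) of the 13 member features with values, one panel each, with the 4 sense samples left of the 4 antisense samples, coloured by dye. Black lines are means of 4 samples and grey ticks are the inferred limits. The 2 APOB features and KLHL29 lie under the ticks in all samples, and ITSN2 feature 41897 lies just above them.

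UBXN2A, a cofactor of the ATPase VCP in the handling of ubiquitinated proteins, is the nearest member with a detected mRNA. Feature 8554 gave 589, 347, 755 and 551 units in sense samples 1 to 4, against 560, 338, 563 and 558 in antisense samples 1 to 4. Replicate 2 was low in both constructs, the others lay together, and the constructs overlapped. The mean log2 intensity was 29.01 ± 0.47 in sense and 28.88 ± 0.36 in antisense samples (SD, n = 4 each). The difference was 0.13 (SE 0.21, 95% interval -0.34 to 0.60, adjusted p = 0.78 in limma), and the interval holds differences of either sign.

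FKBP1B, an immunophilin that binds ryanodine receptor calcium channels, was far above the limits, at 21.9 to 76.3 times. Feature 20513 gave 1930, 1770, 1860 and 1250 units in sense samples, against 2040, 1500, 2080 and 1840 in antisense samples. Sense 4 was the lowest sample, and the others of both constructs were mixed. The difference was -0.14 (SE 0.14, 95% interval -0.45 to 0.17, adjusted p = 0.63 in limma), with the smallest standard error of the detected member features. It was -0.04 without sense 4 and -0.24 without sense 2.

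ITSN2, a scaffold of clathrin-mediated endocytosis, was the one member whose detected features went opposite ways. Feature 41897 gave 72.1, 50.0, 74.3 and 68.5 units in sense samples 1 to 4, against 115, 128, 84.1 and 85.7 in antisense samples 1 to 4. All sense samples were below all antisense samples. The mean log2 intensity was 25.96 ± 0.26 in sense and 26.60 ± 0.30 in antisense samples (SD, n = 4 each). The difference was -0.63 (SE 0.22, unadjusted p = 0.015), but over all features it did not pass (adjusted p = 0.29 in limma). This is the member closest to background among those detected, at 1.43 to 2.85 times the limits.

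The 2 brighter ITSN2 features did not show that difference. Feature 30970, annotated to the same transcript as 41897, gave 696, 1030, 534 and 535 units in sense samples, against 703, 734, 604 and 689 in antisense samples. Sense samples spread to both sides of the antisense samples there, with a difference of -0.02 (SE 0.21, 95% interval -0.47 to 0.44). Feature 4167, annotated to another ITSN2 transcript, gave 206, 189, 173 and 158 units in sense samples, against 154, 161, 115 and 143 in antisense samples. Here 3 of 4 sense samples lay above all antisense samples, and sense 4 lay below antisense 2. The difference was 0.35 (SE 0.19, adjusted p = 0.39 in limma). No direction can be given for ITSN2 as a gene, and which splice forms each probe covers is not given in the sources used here.

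NCOA1, a coactivator that brings histone acetylation to nuclear receptors, had the largest positive difference among members. Feature 37515 gave 832, 706, 1030 and 988 units in sense samples 1 to 4, against 627, 735, 716 and 630 in antisense samples 1 to 4. Sense 2 lay below antisense 2 and antisense 3, and the other sense samples were above all antisense samples. The mean log2 intensity was 29.71 ± 0.25 in sense and 29.33 ± 0.12 in antisense samples (SD, n = 4 each). The difference was 0.38, a ratio of 1.30 (SE 0.16, 95% interval 0.03 to 0.74, unadjusted p = 0.038), and it did not pass (adjusted p = 0.33 in limma). It was positive within Cy3 (0.47) and within Cy5 (0.30), and ran from 0.30 to 0.50 when 1 sample was left out.

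PUM2, an RNA-binding protein that represses translation of its target mRNAs, had 3 detected features annotated to 1 transcript, all with positive differences that did not pass. Feature 36290 gave 1150, 976, 1260 and 1610 units in sense samples, against 1070, 1220, 1040 and 948 in antisense samples. Feature 13792 gave 1330, 843, 1520 and 1590 units in sense samples, against 1000, 1260, 1000 and 1040 in antisense samples. In both, sense 2 fell among or below the antisense samples while sense 4 was the highest sample. The differences were 0.21 (SE 0.17) and 0.26 (SE 0.20) over all samples. Without sense 4 they were 0.06 and 0.13, and without sense 2 they were 0.35 and 0.49. Feature 17475 gave 281, 346, 298 and 777 units in sense samples, against 338, 446, 318 and 347 in antisense samples. Its difference was 0.11 (SE 0.25), and -0.18 without sense 4, the highest sample. The adjusted p-values in limma were 0.56, 0.53 and 0.85 for features 36290, 13792 and 17475.

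SDC1, a cell-surface heparan sulfate proteoglycan, was read by 1 feature, 41317, at 21 times the limit or more. It gave 1250, 2190, 1160 and 1270 units in sense samples, against 1550, 1440, 1640 and 1500 in antisense samples. The sense samples were below the antisense samples except sense 2, which was above all of them. The mean log2 intensity was 30.40 ± 0.42 in sense and 30.51 ± 0.08 in antisense samples (SD, n = 4 each). The difference was -0.11 (SE 0.19, adjusted p = 0.79 in limma), -0.33 without sense 2, and of opposite sign within Cy3 (-0.40) and within Cy5 (0.18).

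Over the 13 member features with values, 0 passed an adjusted p under 0.05 in limma over all features, where 0.0677% of the 25094 features did. At an unadjusted p under 0.05 there were 3 (APOB feature 21264, ITSN2 feature 41897 and NCOA1), where 14.2% of all features lie. The constructs did not overlap for 2 (APOB feature 21264 and ITSN2 feature 41897, both lower in sense), where 6.39% of all features do not overlap. APOB feature 21264 lay under the limits. Of the 10 member features detected in both constructs, 2 had an unadjusted p under 0.05 in limma, where 3020 of all 21451 features detected in both did. In 1 of the 10 the constructs did not overlap, where 7.15% of all features detected in both had no overlap. Among these 10 features, 6 differences were positive and 4 negative, with a median of 0.12, against 49.4% positive and a median of -0.004 over all features detected in both. On the 6 samples of the stated design, whose choice by variation shrinks the spread, limma called 1 member feature, APOB 21264. It called 4.25% of all features there. SAM on the same samples called the same feature, where it called 1.67% of all features.

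A wider list was taken from gene order alone, the 20 protein-coding genes on each side of KLHL29. Of its 32 genes that are no members, 6 had no feature, 3 had only empty features and 20 were detected in both constructs. Of their 27 features with values, 0 passed in limma over all 8 samples and 2 had an unadjusted p under 0.05, where 14.2% of all features lie. On the 6 samples of the stated design, SAM called 1, that of RHOB (1.67% of all features), and limma called 2, those of WDCP and PTRHD1 (4.25% of all features). The 23 features detected in both had 12 positive and 11 negative differences, with a median of 0.01 and a range of -0.84 to 0.58. Their median size without sign was 0.21, against 0.19 over all features detected in both constructs and 0.19 over the 1228 such features of chromosome 2. Both directions occurred on each side of KLHL29: members included, 8 of 14 detected features before it and 10 of 19 after it had positive differences.

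The nearest detected genes that are no members showed the same overlap. LDAH, a lipid droplet hydrolase before KLHL29, gave 149, 111, 201 and 114 units in sense samples, against 141, 88.6, 264 and 204 in antisense samples (difference -0.21, SE 0.29). With 1 sample left out, the LDAH difference ran from -0.44 to 0.04. WDCP, a WD-repeat protein after it, gave 699, 666, 786 and 382 units in sense samples, against 517, 599, 491 and 458 in antisense samples (difference 0.25, SE 0.21). In WDCP, sense 1 to 3 were above all antisense samples and sense 4 was below them, and the adjusted p was 0.57 in limma over all 8 samples and 0.048 on the 6 that leave out sense 4 and antisense 2. PTRHD1, farther along and named after its values were seen, gave 4130, 3890, 3990 and 6950 units in sense samples, against 5570, 5500, 5730 and 5460 in antisense samples. Sense 4 was above all antisense samples and the other sense samples were below them. The difference was -0.28 (SE 0.18), with an adjusted p of 0.45 in limma over all 8 samples and 0.031 on the 6.

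By the brightest detected feature of each gene that is no member, the largest positive and negative differences were those of RHOB and POMC. RHOB, a small GTPase that growth factors and stress induce, gave 196, 193, 209 and 339 units in sense samples, against 137, 302, 107 and 121 in antisense samples. Antisense 2 alone reached the sense range, and the difference was 0.58 (SE 0.29, adjusted p = 0.38 in limma). POMC, the precursor of corticotropin and melanocortins, gave 364, 468, 317 and 147 units in sense samples, against 447, 377, 366 and 388 in antisense samples. Its difference of -0.40 (SE 0.30) was -0.03 without sense 4.

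Among the other genes, named after their values were seen, GEN1 and 1 DTNB feature had constructs that did not overlap. These were 7.41% of the 27 features of genes that are no members, near the 6.39% of all features. Among the 23 detected in both constructs the share was 4.35%, against 7.15% of all such features. GEN1, a Holliday junction resolvase at the far end of the list, was detected in sense samples only, at 71.1 to 86.5 units, against 35.8 to 68.3 in antisense samples. With the antisense readings set to their limits, the mean was 1.31-fold higher in sense, which is a bound. The readings as deposited differed by 0.69 (SE 0.26, adjusted p = 0.31 in limma). DTNB feature 17547 gave 89.7 to 152 units in sense samples, against 171 to 322 in antisense samples (difference -0.84, SE 0.25, adjusted p = 0.27 in limma). The other DTNB feature, 6788, differed by 0.17. As with ITSN2, the detected probes of 1 gene had differences of opposite sign.

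**Figure D2:**
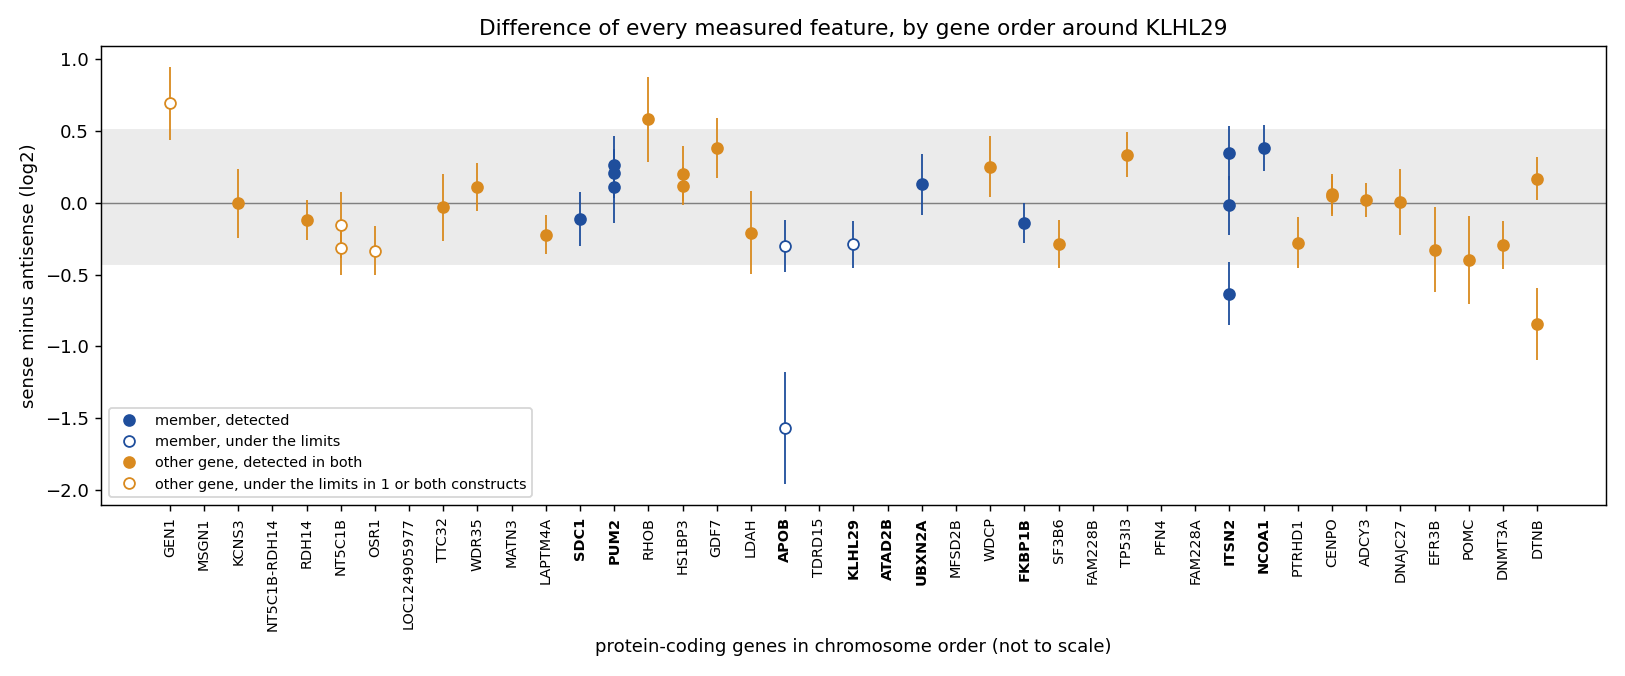
Sense minus antisense difference (log2, vertical axis) of each feature with values, for KLHL29 and the 20 protein-coding genes on each side in chromosome order, not to scale. Error bars are the SE of the limma fit, the grey band spans the 5th to 95th percentile of all features detected in both constructs, and the outlying detected features are those of RHOB, ITSN2 and DTNB.

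The dye was balanced over the constructs, and 10 of the 13 member features had the same sign within each dye, against 63.0% of all features. Of the 10 detected in both constructs 7 did, against 60.8% of all such features. The 3 that did not were SDC1, PUM2 feature 17475 and ITSN2 feature 30970. Within the 4 Cy3 samples alone 3 member features passed, APOB 21264 (-2.07), PUM2 13792 (0.51) and SDC1 (-0.40), where 11.5% of all features passed. Within the 4 Cy5 samples 0 passed in limma, 2 had an unadjusted p under 0.05 (2.55% of all features did), and the PUM2 13792 difference was 0.02.

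**Figure D3:**
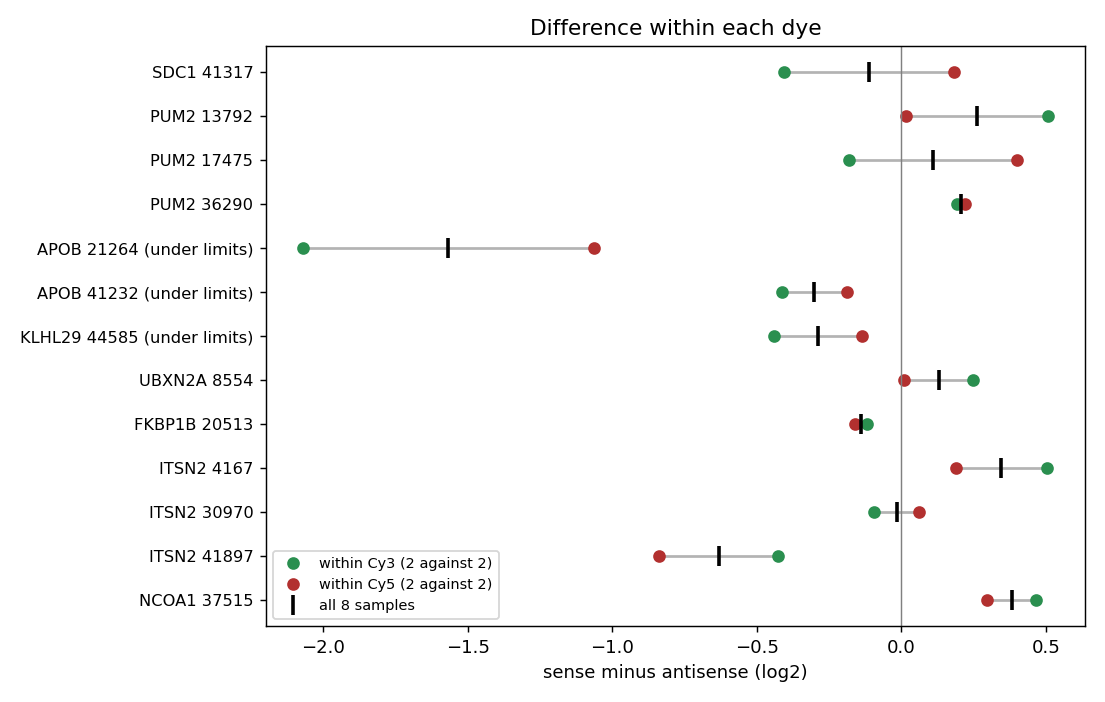
Sense minus antisense difference (log2, horizontal axis) of each member feature in samples of either dye (2 against 2 each), with the value over all 8 samples as a black bar. NCOA1, FKBP1B and PUM2 feature 36290 had similar values in both dyes, and SDC1 changed sign.

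The spread among the samples of a construct, which is that of culture, labelling and hybridisation, and their number set what could be seen. The SE of the 10 detected member features ran from 0.14 to 0.25, near the median of 0.18 over all features detected in both constructs. Every detected member but NCOA1 and ITSN2 feature 41897 had a 95% interval that held 0.

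**Figure D4:**
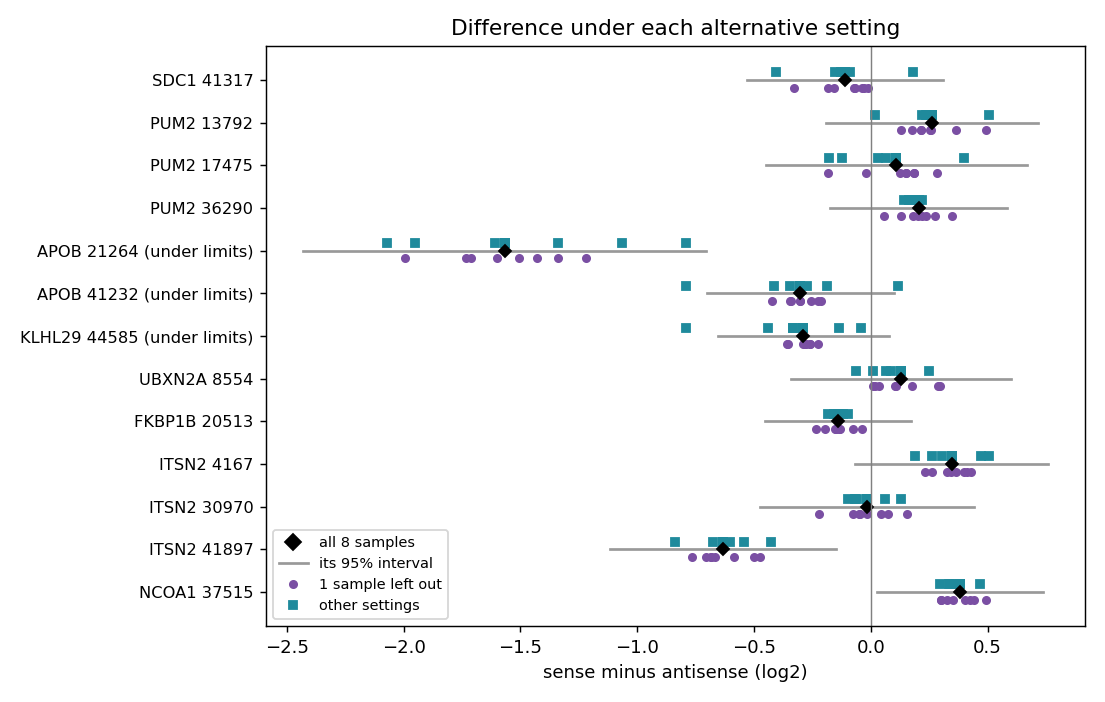
Sense minus antisense difference (log2, horizontal axis) of each member feature over all 8 samples with its 95% interval (black diamond and grey line), with 1 sample left out (circles) and under the other settings (squares). NCOA1, ITSN2 features 4167 and 41897, FKBP1B and PUM2 features 13792 and 36290 kept their sign throughout.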

How the data were processed

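RNA of 8 HEK293 samples was labelled with Cy3 or Cy5 and hybridised to Agilent oligonucleotide arrays. The submitters' processing notes name Agilent Feature Extraction 9.5. The deposited values are linear intensity values that the authors scaled between samples by their 40% trimmed mean, per the labels' design text. Their threshold for expression lay 3 SD over the negative control mean, and a probe with a mixed reading among the samples of 1 construct was dropped. The sources used here do not give the background correction, the dye correction or the genome build. The absolute scale is unknown. The column medians coincide in pairs of opposite dye, 579 and 579, 590 and 590 units in sense samples 1 to 4, and 571 and 571, 548 and 549 in antisense samples 1 to 4. The labels do not say whether such pairs shared an array.

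The orientation in each title gave the group. Features were named from the platform annotation of 1 gene, matched by gene ID to a RefSeq table (31291 of 31332 features matched), and features of a gene were kept apart. Detection limits were chosen per sample so that the fewest features had a mixed reading within a construct (1 in sense, 0 in antisense samples). Log2 intensity was fitted with limma 3.58.1 in R 4.3.3 (construct and dye, all 8 samples, eBayes with trend), with Benjamini-Hochberg adjustment over 25094 features and a threshold of 0.05. Adjusted p-values are from limma unless SAM is named. SAM (significance analysis of microarrays) followed the stated design on 6 samples, at a false discovery rate of at most 5.4% and 1.4-fold. The 2 left out, sense 4 and antisense 2, were picked here from these same values. Without them the mean coefficient of variation within their construct was lowest. This choice shrinks the spread that SAM and the limma fit on the 6 samples use. Limma and SAM were both tested on simulated data.

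The members, the list of 20 genes on each side and the rule for named genes were chosen with earlier results of these data known. The rule names all members and, with no call in the list, its nearest detected genes on each side and those with the largest and smallest difference by brightest feature. Genes with a pattern like KLHL29 or ATAD2B were not sought, since neither had a feature with values above the limits.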

Additional observations from a re-analysis of the deposited data

Results flagged for a closer look

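Among the 26 groups of 4 samples of the member features, 3 held a sample whose gap to the nearest other exceeded 0.829 of the group's range on the log2 scale. Chance gives about 1 in 20 groups. UBXN2A feature 8554 read 338 units in antisense 2, against 558 to 563 in the other antisense samples. PUM2 feature 13792 read 1260 units in antisense 2, against 1000 to 1040 in the others. SDC1 feature 41317 read 2190 units in sense 2, against 1160 to 1270 in the other sense samples. The sample antisense 2 is one of the 2 that the stated design leaves out. Without it, the differences were 0.01 for UBXN2A and 0.37 for PUM2 feature 13792, and without sense 2 the SDC1 difference was -0.33.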

How the results depend on the processing

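The count of member features past the threshold was 0 under each of the other settings run in limma but these: 3 within Cy3 and 1 on the 6 samples of the stated design, and SAM gave 1. For the list of neighbours, members included, it was 0 but for 6, 3 and 2 under the same settings. Over all features the count was 17, 8 higher and 9 lower in sense, and 2888 within Cy3, 4 within Cy5, 10 with detected features only, 10 without a trend, 1066 on the 6 samples (413 higher and 653 lower), 420 by SAM (370 and 50), and 4 to 20 with 1 sample left out. With values under a limit set to it, 18 of 20 were higher. For the 13 member features, 228 of 244 alternative values kept sign and side of the threshold. Sign changed for UBXN2A (-0.063), PUM2 feature 17475 (-0.12) and ITSN2 feature 30970 (0.13) on the 6 samples, for PUM2 feature 17475 (-0.18) within Cy3, for SDC1 (0.18) and ITSN2 feature 30970 (0.062) within Cy5, and for APOB feature 41232 (0.12) after quantile normalization. With 1 sample left out, PUM2 feature 17475 ran from -0.18 to 0.28 and ITSN2 feature 30970 from -0.22 to 0.16. The cause of these changes was not tested. Replicate numbers showed no consistent pairing of the samples. Deviations from the construct means correlated at 0.28, 0.001, 0.11 and -0.11 for numbers 1 to 4 over features detected in both constructs. Samples of the same number share a dye, so pairing could not be told apart from dye there. With the replicate number as a block 7 features passed. A random block for columns with coinciding medians, added after seeing the data, also gave 7 (correlation 0.25). For features under the limits, the setting with a floor compares only the limits themselves.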
